A study of Mus musculus with 12 samples.

Results

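Interferon-stimulated genes are the genes a cell switches on when it senses a type I or type II interferon. A set of 39 was examined in mouse osteoblasts, the bone-forming cells. They were chosen by name, as well-known targets of interferon, but with earlier results of these data known, and were sorted by role into 9 groups. All 39 were listed in every library, among 23284 gene names in the table of sorted osteoblasts and 24346 in that of the cell line.

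The first experiment compared osteoblasts sorted from female Col2.3-ECFP mice, aged 12 weeks at the start, that received PBS (vehicle) or hPTH (1-34) at 40 µg/kg/day, 5 days a week for 3 weeks. Cells were collected 24 h after the last injection as 7AAD-Lin-CD45-ECFP+ cells, so both groups carried the reporter, in which a type I collagen promoter drives ECFP in mature osteoblasts. The second compared MC3T3-E1 cells, a clonal osteoblastic line from mouse calvaria, that had received the empty retroviral vector pMX-IRES-Puro (mock) or the same vector with *Slpi*, and that had all been selected with puromycin. *Slpi* encodes secretory leukocyte protease inhibitor. Each of the 4 groups had 3 libraries. The labels do not say whether these came from separate animals or cultures, so *p* values measure only the spread between the libraries. The first comparison addressed what PTH changes in osteoblasts in vivo, and the second what *Slpi* alone changes in an osteoblastic line.

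Type I interferons bind the receptor of IFNAR1 and IFNAR2 and signal through JAK1 and TYK2 to a complex that holds STAT2 and IRF9 and binds the interferon-stimulated response element (ISRE) in the promoters of its targets. Interferon-γ binds IFNGR1 and IFNGR2 and signals through JAK1 and JAK2 to factors that act at the gamma-activated site (GAS). Many targets respond to both, whereas the immunoproteasome and the GTPases that defend against intracellular pathogens are best known as targets of interferon-γ. In bone, interferon-γ and interferon-β are known to restrain the formation of osteoclasts.

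Promoters are shown for 6 members, *Isg15* and *Ifit1* as classical ISRE targets, and *Gbp2*, *Igtp*, *Psmb8* and *Psmb9* because the results below turn on them. They are RefSeq sequences of GRCm38.p6, from 250 bases before to 50 bases after the transcript start that RefSeq gives, written in the direction of transcription. GENCODE M21 starts *Psmb8* and *Psmb9* 474 and 434 bases further upstream, so that by this annotation both windows lie inside the gene. Capitals mark matches to the ISRE letters, TTTC followed by TTTC with any 2 bases between them, or GAAA and GAAA on the other strand, and to the GAS letters TTCNNNGAA, which read the same on both strands.
Isg15, chr4:156200769-156201068, minus strand: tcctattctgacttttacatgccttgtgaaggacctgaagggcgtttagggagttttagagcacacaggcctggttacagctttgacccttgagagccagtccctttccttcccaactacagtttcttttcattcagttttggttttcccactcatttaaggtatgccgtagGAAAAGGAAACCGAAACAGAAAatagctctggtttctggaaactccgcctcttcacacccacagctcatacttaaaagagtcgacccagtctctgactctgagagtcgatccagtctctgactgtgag
Ifit1, chr19:34640639-34640938, plus strand: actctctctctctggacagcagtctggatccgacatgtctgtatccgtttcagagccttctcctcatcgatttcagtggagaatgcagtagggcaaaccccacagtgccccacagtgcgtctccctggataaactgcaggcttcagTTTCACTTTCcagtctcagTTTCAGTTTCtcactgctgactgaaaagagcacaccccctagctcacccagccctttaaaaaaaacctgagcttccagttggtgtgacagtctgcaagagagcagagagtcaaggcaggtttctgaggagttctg
Gbp2, chr3:142620413-142620712, plus strand: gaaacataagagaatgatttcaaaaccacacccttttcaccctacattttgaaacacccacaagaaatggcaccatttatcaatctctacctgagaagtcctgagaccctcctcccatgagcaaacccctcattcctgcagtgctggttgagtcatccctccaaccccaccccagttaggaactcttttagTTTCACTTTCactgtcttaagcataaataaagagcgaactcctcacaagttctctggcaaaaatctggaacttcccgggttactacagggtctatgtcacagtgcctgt
Igtp, chr11:58199306-58199605, plus strand: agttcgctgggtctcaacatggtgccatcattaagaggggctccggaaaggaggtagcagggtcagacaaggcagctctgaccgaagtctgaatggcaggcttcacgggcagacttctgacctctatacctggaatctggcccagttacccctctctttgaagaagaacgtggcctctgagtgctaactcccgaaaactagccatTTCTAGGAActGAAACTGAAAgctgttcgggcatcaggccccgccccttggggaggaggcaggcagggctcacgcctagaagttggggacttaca
Psmb8, chr17:34197945-34198244, plus strand: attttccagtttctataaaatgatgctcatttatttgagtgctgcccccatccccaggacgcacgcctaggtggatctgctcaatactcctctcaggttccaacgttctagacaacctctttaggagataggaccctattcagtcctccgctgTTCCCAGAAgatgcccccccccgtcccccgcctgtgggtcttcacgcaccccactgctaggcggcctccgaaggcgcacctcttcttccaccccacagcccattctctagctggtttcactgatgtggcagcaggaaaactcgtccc
Psmb9, chr17:34187281-34187580, minus strand: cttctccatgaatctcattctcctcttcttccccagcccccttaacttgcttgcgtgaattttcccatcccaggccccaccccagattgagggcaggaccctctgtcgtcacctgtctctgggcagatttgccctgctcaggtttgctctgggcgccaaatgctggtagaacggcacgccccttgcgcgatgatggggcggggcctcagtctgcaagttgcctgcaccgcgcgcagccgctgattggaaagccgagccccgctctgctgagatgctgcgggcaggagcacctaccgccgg

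*Isg15* held 3 overlapping ISRE matches in a single run, and *Ifit1* held 2. *Igtp* had a GAS match 2 bases away from an ISRE match, *Gbp2* an ISRE match and *Psmb8* a GAS match. *Psmb9* and *Tap1* lie head to head, and 275 bases of their 300-base windows are the same DNA, which held neither match. Promoters were at hand for 31 of the 39 members. The ISRE letters were in those of 17, or 54.8%, against 3.99% of 27025 mouse genes (3.44% of their 32851 promoters). The GAS letters were in those of 9, or 29.0%, against 9.55% of all genes (8.30% of promoters). A match is a description of the letters and not a binding site, and these genes are known for such elements.

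The values are FPKM, numbers of fragments scaled by transcript length and by the size of the library, which the authors deposited and which allow levels of different genes to be compared per length. Judged by the smallest step between low values, taken as 1 read, an FPKM of 1 stood for 4.50 to 8.005 reads per kilobase of transcript in the sorted osteoblasts and for 22.0 to 25.6 in MC3T3-E1 cells. Low members were therefore measured with few reads in the first experiment, and such read numbers are approximate. *Slpi* had an FPKM of 377, 396 and 386 in the mock libraries and 2105, 1973 and 1848 in the *Slpi* libraries. In the sorted cells it had 1.64, 2.38 and 2.62 with vehicle and 37.5, 19.8 and 27.2 with PTH. The osteoblast markers *Bglap*, *Ibsp*, *Spp1* and *Sp7* were present in all sorted libraries, with *Bglap* at no less than 6963. Of 10 such markers, *Sp7*, *Alpl*, *Ibsp*, *Spp1* and *Dmp1* were higher in every PTH library than in every vehicle library. That is 5 higher and 0 lower, beside 19.5% and 20.9% of all genes. *Spp1* had 1878, 1690 and 2042 with vehicle and 3437, 3085 and 3321 with PTH. *Col1a1* was listed at 0 in vehicle replicate 3 and in all 3 PTH libraries but at 26216 and 24170 in the other vehicle libraries. *Col1a2* was at 0 in the same libraries, so that these zeros may be failed estimates.

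Markers of cells outside the sorting gate were also found in the sorted libraries. *Ptprc*, the gene of CD45 for which the cells were gated negative, had an FPKM of 56.9, 59.2 and 35.9 with vehicle and 10.1, 8.53 and 0.930 with PTH. The summed FPKM of 11 T and NK cell markers was 92.1 to 142 with vehicle and 1.15 to 20.9 with PTH. For 5 of the 11 every PTH library lay below every vehicle library, as for 20.9% of all genes, and 0 lay above. *Cd3g* led this list with 97.5, 87.3 and 60.4 against 7.89, 10.7 and 0, while *Ncr1* and *Cd247* were at 0 in at least 2 of the 3 vehicle libraries. *Ncr1* had 0.334 in PTH replicate 1. *Cd2* and *Nkg7* overlapped between the groups, *Nkg7* with 4.40, 2.63 and 4.06 against 8.09, 3.09 and 0.369. The 4 mast cell and basophil markers summed to 46.9 to 74.7 against 0.269 to 9.20, nearly all of it *Cpa3*, with *Ms4a2* at 0 throughout. Of this list *Mcpt8* overlapped, and *Prss34* had 0.155, 0 and 0.116 with vehicle and 1.25, 1.49 and 0 with PTH. Neutrophil markers moved the other way, from 352 to 442 with vehicle to 653 to 2225 with PTH. Of the 8, 7 were higher in every PTH library than in every vehicle library, as were 19.5% of all genes. The monocyte and macrophage list overlapped between the groups, at 58.8 to 90.3 and 34.2 to 141. Within it *Cx3cr1* was lower and *Ccr2* higher with PTH, each without overlap. That is 1 of 8 genes in each direction, beside 20.9% lower and 19.5% higher of all genes. The sums of the B cell, plasmacytoid dendritic cell, endothelial and erythroid lists overlapped too. The PTH libraries also differed among themselves in other lists. The 4 megakaryocyte markers summed to 1.79 to 4.56 with vehicle and to 177, 142 and 2.41 with PTH. The 5 heart muscle markers reached 1892 in PTH replicate 2 but at most 12.2 in the other libraries. Immune cells express many of the genes described here. The part of these cells in the results of the sorted osteoblasts was not tested, and fewer cells of a type and less RNA per cell cannot be told apart in such bulk libraries.

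With PTH, 3 of the 4 members of antigen presentation and 3 of the 4 interferon-inducible GTPases were lower in the sorted osteoblasts, whereas no member was called higher (1 at an unadjusted *p* under 0.05 in limma). Of the 39 members, 34 reached an FPKM of 1 in at least 1 library and were tested with limma. At an adjusted *p* under 0.05, 9 were lower, and 8.85% of the 13004 genes tested were called lower (6.38% higher). The 9 were *Psmb8*, *Psmb9*, *Tap1*, *Igtp*, *Irgm1*, *Gbp2*, *Trim25*, *Usp18* and *Ifi35*. A further requirement of a 2-fold change on the log2(FPKM + 1) scale left *Psmb8*, *Psmb9* and *Usp18*, 3 of 34, against 3.78% of all genes (0.869% higher). By the group means of FPKM, which give larger folds, *Tap1*, *Igtp*, *Irgm1* and *Trim25* were also 2.03 to 2.199 times higher with vehicle. The fitted log2 fold change was negative for 32 of the 34, with a median of -0.49, whereas the median over all genes tested was 0.01. The 2 members with a positive value were *Bst2* and *Ifitm3*. In 15 members every PTH library lay below every vehicle library, as did 20.9% of all genes, and in 1, *Ifitm3*, every PTH library lay above (19.5% of all genes). The 32 and the 15 both include *Dhx58* and *Xaf1*. These reached an FPKM of 1 only with vehicle, so the filter itself favoured a lower PTH value for them.

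How many members passed the adjusted threshold depended on the libraries in the fit, and so did the number of calls over all genes. Without vehicle replicate 1 or without vehicle replicate 2 no member passed the adjusted limma threshold, and over all genes 1 and 0 did so. At an unadjusted *p* under 0.05, 10 and 15 members were lower in these fits, against 13 with all libraries. Without PTH replicate 1 the adjusted count was 2 and the unadjusted one 15. Over all genes 405 were then called lower, against 1151 with all libraries. Without the other 3 libraries, left out 1 at a time, the adjusted count of members was 5 to 7. Over all genes 790 to 895 were then called lower. All 9 members kept a negative fold change in every alternative run. With FPKM rescaled to the same sum in every library, again 9 members were lower, and over all genes 1213 of 13002 were. Of all calls in either direction, 68.6% were then lower ones, against 58.1% before.

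**Figure D1:**
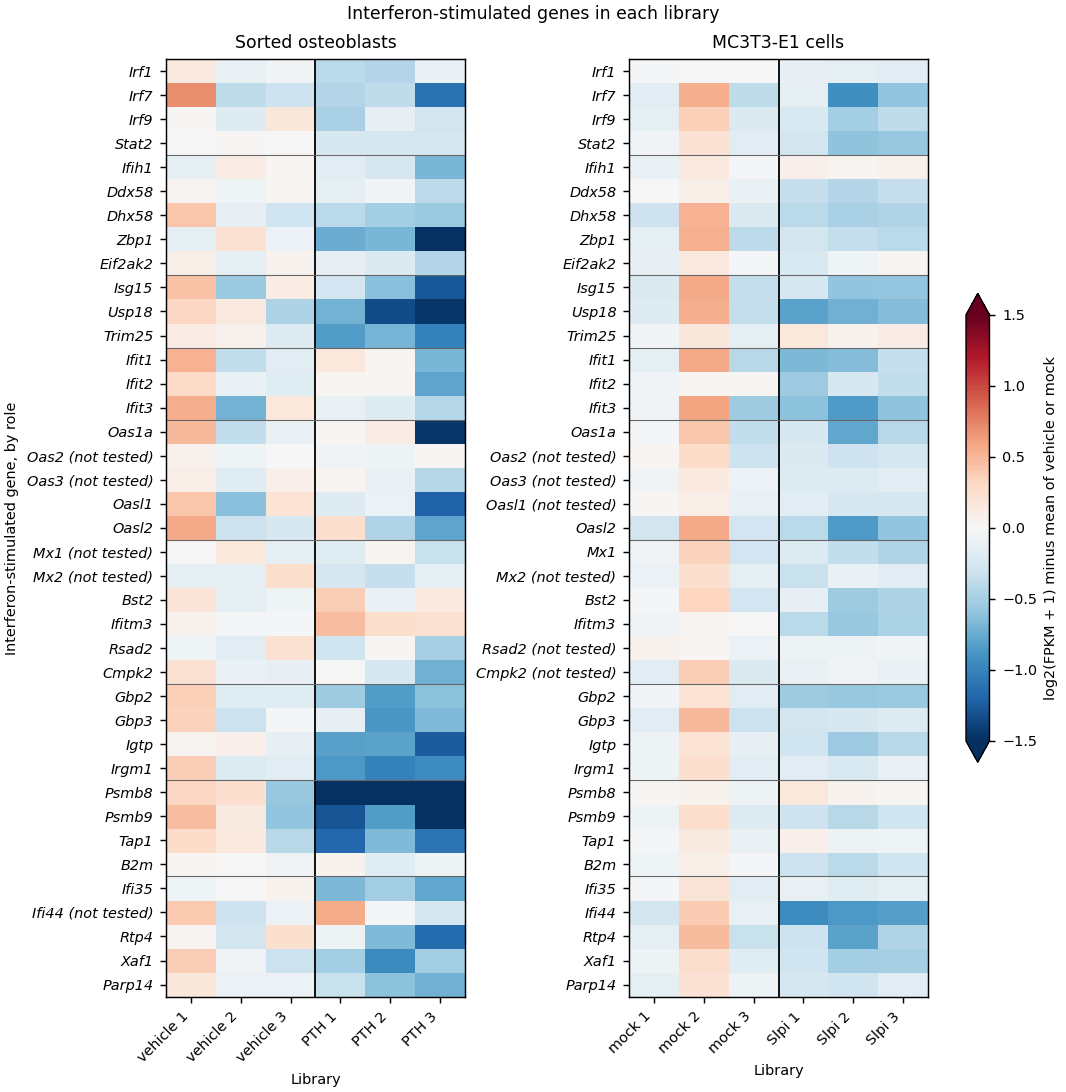
Each cell gives log2(FPKM + 1) of an interferon-stimulated gene (rows, ordered by role with lines between roles) in a library (columns), minus the mean of the 3 vehicle or 3 mock libraries, and colours end at 1.5 in either direction. Blue fills the PTH columns of *Psmb8*, *Psmb9*, *Tap1* and the GTPases, and mock replicate 2 is the reddest column of the MC3T3-E1 panel.

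The 4 members of antigen presentation had the lowest median log2 fold change of the 9 roles, -1.16. *Psmb8* encodes a catalytic subunit of the immunoproteasome, the proteasome form that cuts peptides for MHC class I. It had an FPKM of 54.4, 52.3 and 29.1 with vehicle and 11.6, 10.6 and 4.29 with PTH. The groups were far apart, and its log2 fold change of -2.28 ± 0.38 (SE, adjusted *p* = 0.0177) was the lowest of the 34. *Psmb9*, another catalytic subunit, had 17.3, 13.6 and 7.82 against 4.44, 6.47 and 2.61 (log2 fold change -1.33 ± 0.34, adjusted *p* = 0.0436). *Tap1*, a subunit of the transporter of peptides into the endoplasmic reticulum, had 12.8, 11.6 and 7.54 against 4.05, 6.19 and 4.27 (-0.98 ± 0.22, adjusted *p* = 0.0334). Neither gene overlapped between the groups, although vehicle replicate 3 came close to PTH replicate 2 for both. Exons of *Psmb9* and *Tap1* overlap by 212 bases on opposite strands, so without strand some reads cannot be told apart between them. *B2m*, the light chain of MHC class I, was the most abundant member and had 1213, 1192 and 1144 against 1225, 1043 and 1123. Its groups overlapped, with a 95% interval of the log2 fold change from -0.29 to 0.16.

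Other genes of the MHC class I path, a list of 10 that are no members, were lower too, 7 of 10 at an adjusted *p* under 0.05, beside 8.85% of all genes. This list too was chosen with earlier results of these data known. *Nlrc5*, the transactivator of MHC class I genes, had an FPKM of 7.66, 7.46 and 5.62 with vehicle and 2.18, 1.96 and 2.32 with PTH (log2 fold change -1.32 ± 0.15, adjusted *p* = 0.0133). *Psmb10*, the third inducible proteasome subunit, had 14.4, 20.6 and 16.0 against 7.90, 7.28 and 6.72 (-1.10 ± 0.15, adjusted *p* = 0.0139). *Erap1*, which trims peptides, had 12.9, 13.4 and 9.55 against 6.39, 5.84 and 5.36 (-0.90 ± 0.15, adjusted *p* = 0.0184). The groups did not overlap in any of the 3. *Tap2*, *Psme2*, *H2-K1* and *Tapbp* were lower by 0.50 to 0.78 on the log2 scale, whereas *H2-D1* was at -0.11 (adjusted *p* = 0.491). Of the MHC class II list, 0 of the 4 genes tested passed the limma threshold in either direction, and 0 had an unadjusted *p* under 0.05.

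Interferon-inducible GTPases disrupt the vacuoles in which intracellular pathogens live, and 3 of the 4 members of this role were lower. *Igtp* had an FPKM of 10.3, 10.6 and 9.14 with vehicle and 5.24, 5.29 and 3.63 with PTH, a log2 fold change of -0.96 ± 0.16 (adjusted *p* = 0.0177). *Irgm1* had 19.4, 12.7 and 13.02 against 7.69, 6.80 and 7.18 (-0.94 ± 0.17, adjusted *p* = 0.021). *Gbp2* had 29.1, 19.7 and 19.7 against 15.2, 12.1 and 14.2 (-0.66 ± 0.18, adjusted *p* = 0.0481). All PTH libraries were below all vehicle libraries for these 3 genes, although the *Gbp2* call was lost whichever library was left out. The exons of *Igtp* and *Irgm2* share 162 bases on the same strand. *Gbp3* overlapped between the groups (-0.55, adjusted *p* = 0.185).

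ISG15 is a small modifier that is attached to proteins like ubiquitin, and 2 of its 3 genes were lower. *Usp18*, which removes ISG15 and dampens signalling from IFNAR2, had an FPKM of 3.40, 2.92 and 1.57 with vehicle and 1.16, 0.399 and 0.285 with PTH (-1.17 ± 0.29, adjusted *p* = 0.041). *Trim25*, the ubiquitin ligase that activates RIG-I, had 7.74, 7.34 and 6.02 against 3.47, 3.94 and 2.98 (-0.85 ± 0.15, adjusted *p* = 0.0192). Both were separated between the groups, but *Usp18* in PTH replicate 3 rested on about 4 reads. *Isg15* itself had 8.28, 3.63 and 6.40 against 4.59, 3.42 and 1.83, and its groups overlapped (-0.73 ± 0.33, adjusted *p* = 0.172).

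**Figure D2:**
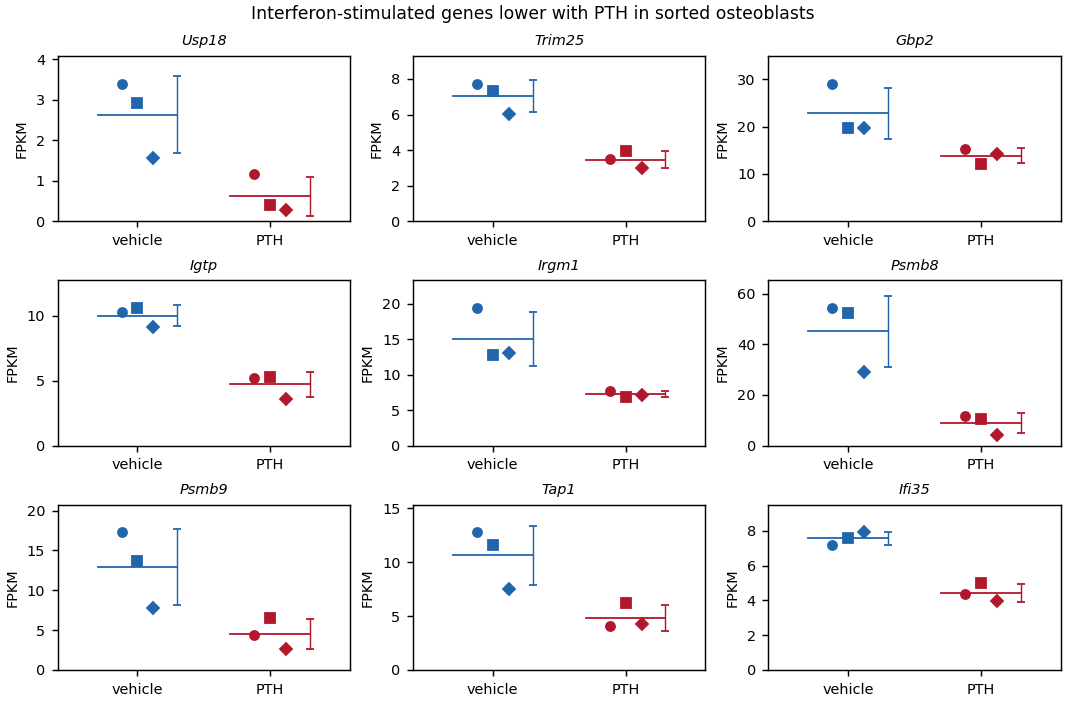
FPKM of the 9 interferon-stimulated genes called lower with PTH, with 3 libraries per group (circle, square and diamond for replicates 1, 2 and 3), the group mean as a horizontal line and 1 SD as the error bar, each panel on its own axis from 0. No PTH point reaches a vehicle point in any panel, and *Psmb8* falls from between 29.1 and 54.4 to between 4.29 and 11.6.

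No IFIT, OAS or virus entry gene passed the limma test, and *Ifitm3* was the 1 of them with an unadjusted *p* under 0.05. The IFIT proteins bind foreign RNA at the ribosome, and their genes had low and scattered levels. *Ifit2* had an FPKM of 2.13, 1.38 and 1.25 with vehicle and 1.61, 1.601 and 0.477 with PTH. *Ifit3* had 2.18, 0.333 and 1.44 against 1.02, 0.906 and 0.623. The log2 fold changes of the 3 *Ifit* genes were -0.17 to -0.25, each turned positive without 1 library or another, and their 95% intervals together reached from -1.02 to 0.60. Any change within the interval of a gene is compatible with its values in these libraries. The OAS enzymes make the second messenger that activates RNase L. *Oasl1* had 3.18, 1.04 and 2.62 against 1.752, 1.95 and 0.349, and *Oas1a* 3.35, 1.42 and 1.88 against 2.16, 2.38 and 0.133. Their groups overlapped, and 0 of the 3 OAS genes tested passed (adjusted *p* 0.40 to 0.525, and 0 with an unadjusted *p* under 0.05).

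*Ifitm3*, a membrane protein that blocks virus entry, stood at an FPKM of 56.9, 53.7 and 53.7 with vehicle and 75.7, 65.8 and 64.4 with PTH. It was the 1 member with every PTH library above every vehicle library, but did not pass the test (0.32 ± 0.10, adjusted *p* = 0.0719). *Cmpk2*, a mitochondrial nucleotide kinase, had 1.94, 1.33 and 1.29 against 1.501, 1.13 and 0.524 with overlapping groups. Of this role *Bst2* and *Rsad2* did not pass either. *Oas2*, *Oas3*, *Mx1*, *Mx2* and *Ifi44* were not tested, with an FPKM of 0 to 0.829, or up to about 20 reads, in any library.

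The sensors of foreign RNA and DNA and the transcription factors held no call (limma, with 1 of 5 and 1 of 4 at an unadjusted *p* under 0.05). *Zbp1*, a sensor of Z-form nucleic acid, had an FPKM of 2.98, 4.17 and 3.15 with vehicle and 1.62, 1.73 and 0.384 with PTH. Its groups did not overlap, and it was just above the threshold (-1.04 ± 0.29, adjusted *p* = 0.0534). *Dhx58*, a regulator of RIG-I signalling, had 1.77, 0.901 and 0.689 against 0.571, 0.453 and 0.405 (-0.49, adjusted *p* = 0.200), and with *Xaf1* it was 1 of the 2 members that reached the FPKM minimum only with vehicle. *Irf1*, a transcription factor of the interferon-γ response, had 87.2, 72.7 and 76.2 against 59.1, 57.4 and 73.0 (-0.32, adjusted *p* = 0.133). *Stat2* had 4.75, 4.84 and 4.75 against 3.88, 3.81 and 3.86, with little spread and no overlap (-0.25, adjusted *p* = 0.17). *Ifi35*, which binds other interferon-induced proteins, was the 1 call among the 5 members of no other role, with 7.20, 7.59 and 7.91 against 4.37, 4.98 and 3.97 (-0.66 ± 0.12, adjusted *p* = 0.0225).

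Upstream of these targets, 6 of the 8 ligands were listed, at 0 except for *Ifng* at 0.14 in PTH replicate 1. *Ifnl2* and *Ifnl3* were not listed. Of the 5 receptor genes tested, 0 passed the limma threshold (1 with an unadjusted *p* under 0.05). *Ifnar2* had an FPKM of 23.7, 26.2 and 24.5 with vehicle and 33.4, 28.6 and 34.7 with PTH (0.36 ± 0.11, adjusted *p* = 0.0672), without overlap. *Tmem173*, which encodes the adaptor STING, had 8.44, 12.6 and 8.26 against 2.54, 3.40 and 1.28 (-1.69 ± 0.27, adjusted *p* = 0.0174). Its groups did not overlap. Over the 8 pathway lists, 9 of 43 genes tested were lower and 0 higher, beside 8.85% and 6.38% of all genes (limma, 16 with an unadjusted *p* under 0.05 in either direction).

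**Figure D3:**
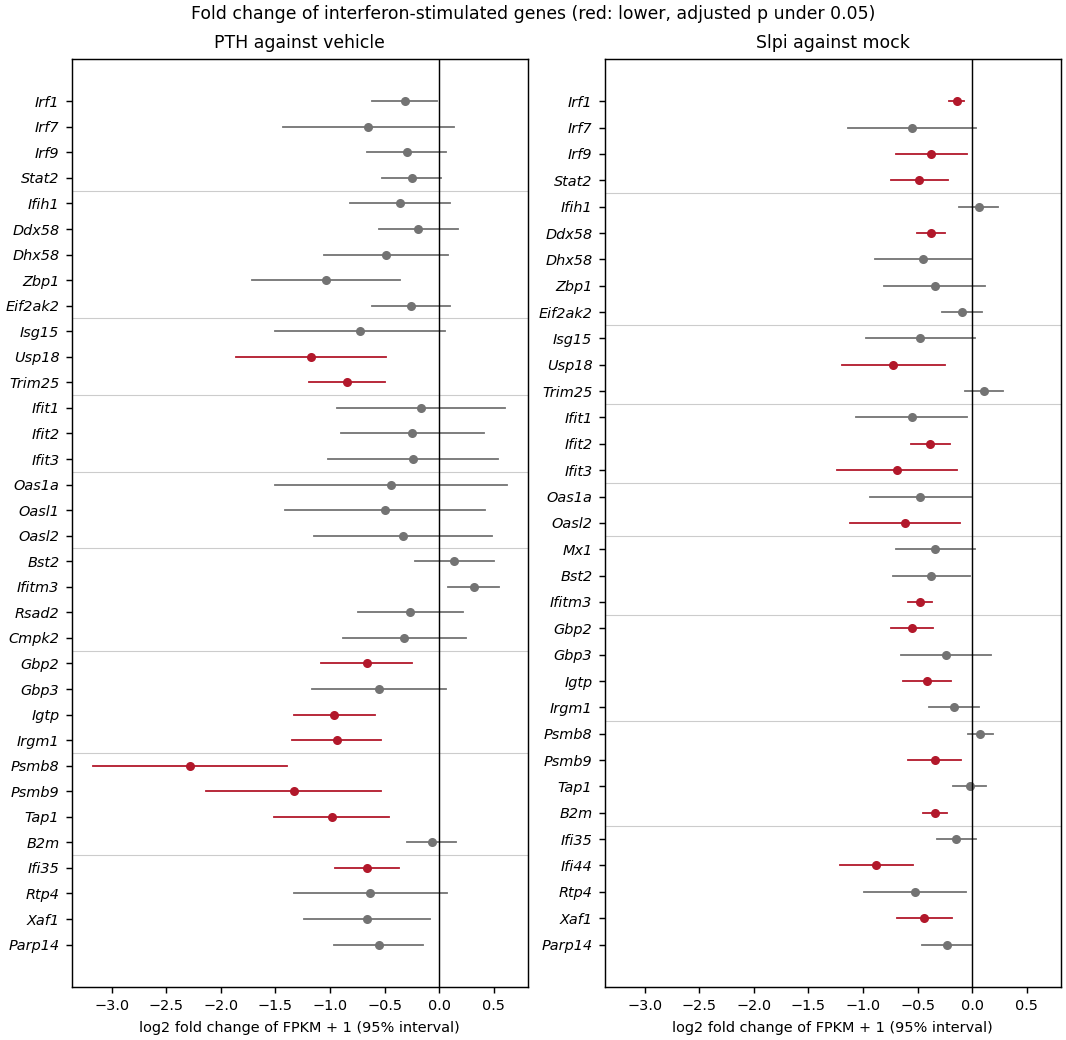
Fitted log2 fold change of FPKM + 1 (points) with its 95% interval (lines) for the members tested, in the order of their roles, with PTH against vehicle on the left and *Slpi* against mock on the right on the same axis. Red marks an adjusted *p* under 0.05. The red points on the left reach -2.28 for *Psmb8*, and those on the right lie between -0.88 and -0.14.

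The sorted libraries also differed among themselves. Vehicle replicate 1 was the highest of the 6 libraries for 23 of the 34 members, against 16.6% of all genes, and PTH replicate 3 the lowest for 22, against 26.6% of all genes. The median member stood 0.25 above, 0.11 below and 0.09 below the vehicle mean (log2) in vehicle replicates 1, 2 and 3, and 0.29, 0.45 and 0.72 below it in the PTH libraries. PTH replicate 3 was also the library with the lowest *Ptprc*. In vehicle replicate 1, 26 members were above both other vehicle libraries, with a median ratio of 1.34 over the mean of these.

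In MC3T3-E1 cells, members of all 9 roles were slightly lower with *Slpi*, with no call that changed 2-fold on the log2(FPKM + 1) scale. By the group means of FPKM, *Usp18*, *Ifi44* and *Ifit3* were 2.42, 2.16 and 2.02 times higher in mock cells. Of the 33 members tested, 15 were lower and 0 higher (limma, with 21 and 0 at an unadjusted *p* under 0.05), where 28.9% of the 11466 genes tested were called lower and 31.9% higher. The 15 fell by 0.14 to 0.88 on the log2 scale, and 0.384% of all genes were called lower by at least 2-fold (0.733% higher). The fold change was negative for 30 of the 33, with a median of -0.38 against 0.00 over all genes tested, and positive for *Ifih1*, *Trim25* and *Psmb8*. The 30 include *Mx1*, which reached an FPKM of 1 only in a mock library, so the filter favoured a negative value for it. In 17 members every *Slpi* library lay below every mock library, as in 32.2% of all genes. With FPKM rescaled to the same sum, 23 members were lower, and *Ifih1* and *Psmb8* turned negative. Over all genes 4449 of 11475 were then called lower, against 3315 of 11466 before. Of all calls in either direction, the lower ones rose from 47.5% to 64.7%, as the median of all genes moved to -0.08.

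Mock replicate 2 stood apart for these genes. It was the highest of the 6 libraries for 32 of the 33 members, against 14.3% of all genes, and above both other mock libraries for all 33. Its FPKM was 1.01 to 2.201 times the mean of the other mock libraries, with a median ratio of 1.34, and at least 1.5 times in 14 members. Without it, 13 members were lower, 1 (*Trim25*) was higher and the median log2 fold change was -0.24. Over all genes 2927 of 11428 were then called lower and 3226 higher. *Irf9* and *Ifit3* lost their calls (adjusted *p* = 0.0887 and 0.0551). Without mock replicate 3 the count of lower members was 26, and 2949 of 11431 genes were called lower. With any other library left out, that count was 11 to 18, with 2922 to 3293 genes called lower. The lowest, 11 of 33 members, came without *Slpi* replicate 2, where 2922 of 11448 genes were called lower. Of the 15 members, 11 were called lower whichever library was left out, and *Irf9*, *Ifit3*, *Oasl2* and *Psmb9* were not.

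**Figure D4:**
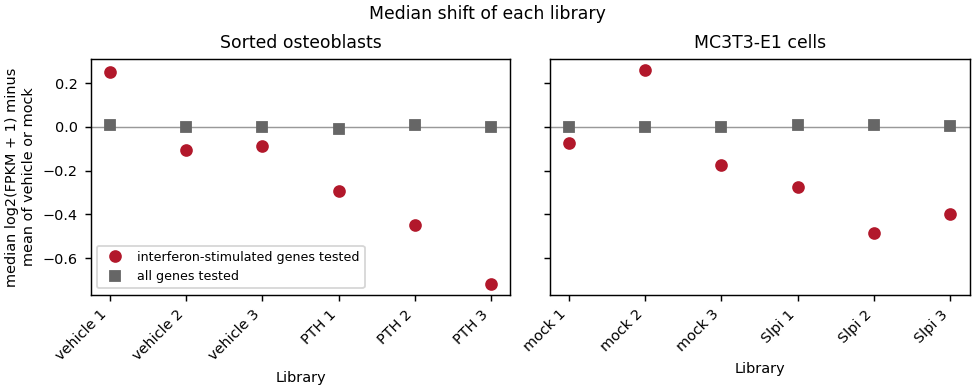
For each library, the median over the interferon-stimulated genes tested (circles) and over all genes tested (squares) of log2(FPKM + 1) minus the mean of the 3 vehicle or mock libraries. All genes stay near 0, while the members run from 0.25 in vehicle replicate 1 to -0.72 in PTH replicate 3, and from 0.26 in mock replicate 2 to -0.48 in *Slpi* replicate 2.

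The most abundant members, *Ifitm3* and *B2m*, were both lower. *Ifitm3* had an FPKM of 1072, 1143 and 1114 in mock and 841, 748 and 797 in *Slpi* cells (log2 fold change -0.48 ± 0.05, adjusted *p* = 7.01e-05). *B2m* had 422, 471 and 432 against 354, 332 and 357 (-0.34 ± 0.05, adjusted *p* = 0.000416). The groups were clearly separated for both. *Bst2*, which tethers budding viruses, overlapped (-0.37, adjusted *p* = 0.065), as did *Mx1* (-0.34, adjusted *p* = 0.0928), which reached the FPKM minimum only in mock replicate 2.

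*Ifi44*, an interferon-induced protein of little known function, had the lowest fold change, with an FPKM of 5.14, 8.67 and 5.84 in mock and 2.85, 3.07 and 3.18 in *Slpi* cells (-0.88 ± 0.15, adjusted *p* = 0.00106). *Xaf1*, which promotes apoptosis, had 9.09, 11.7 and 8.36 against 7.63, 6.45 and 6.54 (-0.44 ± 0.11, adjusted *p* = 0.00914). The groups did not overlap for either gene, and mock replicate 2 was the highest for both. *Rtp4*, *Parp14* and *Ifi35* had fold changes of -0.52, -0.23 and -0.14 and did not pass.

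Among the transcription factors 3 of 4 were lower. *Stat2*, the type I interferon signal transducer, had an FPKM of 13.1, 15.9 and 11.96 in mock and 11.0, 8.56 and 8.81 in *Slpi* cells (-0.48 ± 0.11, adjusted *p* = 0.00601). *Irf9*, its DNA-binding partner, had 8.54, 12.4 and 7.998 against 7.94, 6.36 and 7.04 (-0.37 ± 0.14, adjusted *p* = 0.0493), so that mock replicate 3 and *Slpi* replicate 1 nearly met. *Irf1* had 44.7, 45.4 and 45.2 against 41.5, 40.6 and 40.2, a small but well separated difference (-0.14 ± 0.03, adjusted *p* = 0.0037). *Irf7* overlapped between the groups (-0.55 ± 0.26, adjusted *p* = 0.0915). Exons of *Irf9* and *Rnf31* share 123 bases on the same strand.

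*Ddx58*, which encodes the RNA sensor RIG-I, was the 1 sensor of 5 to be lower, with an FPKM of 20.6, 21.9 and 19.1 in mock and 15.9, 14.8 and 15.9 in *Slpi* cells (-0.38 ± 0.05, adjusted *p* = 0.000474). *Ifih1*, the sensor MDA5, had a fold change of 0.06 with a 95% interval of -0.12 to 0.24. *Usp18* had 1.91, 3.86 and 1.59 against 0.907, 1.02 and 1.11 (-0.72 ± 0.21, adjusted *p* = 0.015), and was separated between the groups. *Isg15* had 16.9, 29.9 and 15.2 against 16.4, 12.8 and 12.9, where mock replicate 2 alone stood high (-0.48 ± 0.22, adjusted *p* = 0.0891).

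Among the IFIT and OAS genes tested, mock replicate 2 lay well above the other mock libraries except for *Ifit2*. The latter had an FPKM of 5.18, 5.49 and 5.44 in mock and 3.37, 4.40 and 3.93 in *Slpi* cells (-0.38 ± 0.08, adjusted *p* = 0.0031). *Ifit3* had 3.84, 6.54 and 2.46 against 2.27, 1.79 and 2.31 (-0.69 ± 0.24, adjusted *p* = 0.0343), and it may share reads with its close copy *Ifit3b*. *Oasl2* had 5.93, 11.4 and 5.83 against 5.32, 3.64 and 4.55 (-0.62 ± 0.22, adjusted *p* = 0.0386), and its call was lost without *Slpi* replicate 2 or 3. *Ifit1* did not pass (-0.55, adjusted *p* = 0.0578), nor did *Oas1a* (-0.47, adjusted *p* = 0.0702). *Oas2*, *Oas3*, *Oasl1*, *Mx2*, *Rsad2* and *Cmpk2* were not tested, at an FPKM of 0.043 to 0.969.

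**Figure D5:**
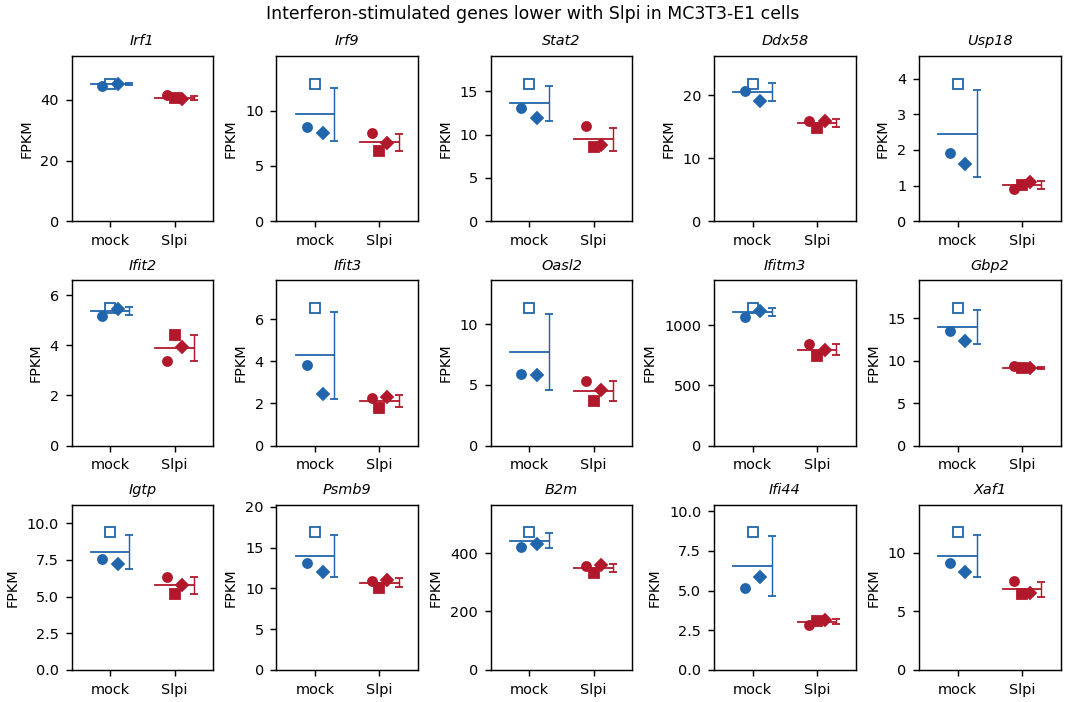
FPKM of the 15 interferon-stimulated genes called lower with *Slpi*, with 3 libraries per group (circle, square and diamond for replicates 1, 2 and 3), the mean as a line and 1 SD as the error bar, each panel on its own axis from 0. The open square is mock replicate 2, which is the top point in all 15 panels and lies far above the other mock libraries for *Usp18*, *Ifit3* and *Oasl2*.

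Of the antigen presentation genes lower with PTH in the sorted osteoblasts, *Psmb8* and *Tap1* were not called here. *Psmb8* had an FPKM of 68.6, 69.9 and 64.3 in mock and 75.8, 69.9 and 68.2 in *Slpi* cells, with a 95% interval of the log2 fold change from -0.04 to 0.19. *Tap1* had 19.7, 22.1 and 18.8 against 21.3, 19.001 and 19.3 (interval -0.17 to 0.13). Both overlapped between the groups. *Psmb9* was lower, with 13.1, 16.9 and 11.999 against 10.9, 10.1 and 11.1 (-0.34 ± 0.11, adjusted *p* = 0.0209), a call that was lost without *Slpi* replicate 2. Of the GTPases, *Gbp2* had 13.5, 16.2 and 12.3 against 9.31, 9.10 and 9.11 (-0.55 ± 0.08, adjusted *p* = 0.000635). *Igtp* had 7.56, 9.38 and 7.26 against 6.33, 5.19 and 5.77 (-0.42 ± 0.10, adjusted *p* = 0.00541). These 2 did not overlap, whereas *Irgm1* and *Gbp3* did.

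Pathway genes that are no members moved both ways with *Slpi*, 21 of 40 tested lower and 6 higher, beside 28.9% and 31.9% of all genes. The receptor genes *Il10rb*, *Ifnar1* and *Ifnar2* were lower and *Ifngr1* was higher. *Ifnar1* had an FPKM of 12.8, 12.5 and 12.7 in mock and 10.5, 10.3 and 10.5 in *Slpi* cells (-0.26 ± 0.04, adjusted *p* = 0.000446). *Ifngr1* had 18.5, 19.04 and 18.2 against 21.8, 22.9 and 21.2 (0.23 ± 0.04, adjusted *p* = 0.0014). Among genes that induce interferons, *Tbk1*, the kinase of IRF3, had 16.3, 15.8 and 16.5 against 25.3, 25.0 and 26.3 (0.62 ± 0.04, adjusted *p* = 6.69e-06). *Mb21d1*, the DNA sensor cGAS, and *Traf3*, an adaptor, were also higher (0.65 and 0.34), whereas *Irf3* was lower (-0.36, adjusted *p* = 0.000144). *Socs3*, an inhibitor of cytokine signalling, had 67.8, 65.7 and 64.1 against 45.5, 37.3 and 38.1 (-0.70 ± 0.07, adjusted *p* = 6.71e-05). Of the MHC class I list 7 of 10 were lower, led by *H2-D1* with 105, 112 and 109 against 83.2, 76.6 and 79.6 (-0.44 ± 0.04, adjusted *p* = 4.61e-05). All 8 ligands were listed at 0. *Ptprc* did not exceed 0.016 and 8 of the 11 T and NK cell markers were at 0 in all 6 libraries, as were all 4 of mast cells and basophils.

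Of the 31 members tested in both experiments, *Gbp2*, *Igtp*, *Psmb9* and *Usp18* were lower in both. They were 44.4% of the 9 lower with PTH and 28.6% of the 14 lower with *Slpi*. Over the 10095 genes tested in both, 132 were lower in both, 15.5% of those lower with PTH and 4.67% of those lower with *Slpi*. Whether the members overlapped more than other genes was not tested. The experiments share no library, but their values were normalized apart, so levels can only be set side by side. *B2m* led the members in sorted cells with an FPKM of 1183 ± 34.9 (SD, n = 3) with vehicle, followed by *Irf1*, *Ifitm3* and *Psmb8* at 78.7 ± 7.57, 54.8 ± 1.85 and 45.3 ± 14.0, where the ranges of *Ifitm3* and *Psmb8* overlapped. In mock cells *Ifitm3* led with 1110 ± 35.9, ahead of *B2m*, *Psmb8* and *Irf1* at 442 ± 25.6, 67.6 ± 2.95 and 45.1 ± 0.348, an order that held in each mock library. Whether the response of a member differed between the 2 experiments was not tested. By promoter letters, an ISRE match was in 3 of 8 members lower with PTH and in 13 of 21 not called. For *Slpi* it was in 7 of 14 lower members and 8 of 13 not called. A GAS match was in 3 of 8 members lower with PTH and 6 of 21 not called. For *Slpi* it was in 4 of 14 lower members and 5 of 13 not called.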

How the data were processed

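The authors deposited FPKM per gene for 12 RNA-Seq libraries. Per the labels and methods, single-end reads of 75 bases were mapped to mm10 with TopHat2 2.0.13, Bowtie2 2.2.3 and SAMtools 0.1.19, and FPKM were calculated with Cufflinks 2.2.1 (Cuffnorm). The gene annotation is not given in the sources used here. For MC3T3-E1 cells the labels name a stranded kit and the methods an unstranded one, so strand is unknown there.

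Each experiment was fitted on its own on log2(FPKM + 1), in R 4.3.3, by a two-sided moderated test of limma 3.58.1 that lets the prior variance follow the mean. A gene entered the fit when any of the 6 libraries reached an FPKM of 1, and Benjamini-Hochberg adjustment covered all genes that entered. Fold changes are on the log2(FPKM + 1) scale, which understates changes of low genes. An exact permutation test of 3 against 3 libraries cannot go below 0.1. The fit was tested on simulated data. Alternatives were a replicate block, 2 other filters, a pseudocount of 0.1, no trend, 2 other scalings and leaving out each library. The members and lists were chosen with earlier results of these data known. Values per library are given for members called, for up to 2 with the smallest *p* in roles without a call, and for up to 3 genes of a pathway list. *Isg15*, *B2m*, *Psmb8* and *Tap1*, where not called, and *H2-D1* in sorted cells were added after their values were seen. Exon overlaps are from GENCODE M21. The near-identical *Oas1* genes and *Ifit3* with *Ifit3b* are uncertain. A gene of the pathway lists is not reported here.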

Additional observations from a re-analysis of the deposited data

How the results depend on the processing

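With PTH, the count of 9 lower members was 0 to 7 when 1 library was left out, the count of higher members stayed at 0, and the median log2 fold change was -0.65 to -0.30. It was 5 with no filter on low values, where 17487 genes shared the adjustment, and the median was -0.75 with a pseudocount of 0.1. With 1 library left out, the log2 fold change of *Ifit1* ranged from -0.349 to 0.0964, that of *Ifit2* from -0.385 to 0.0247, that of *Ifit3* from -0.598 to 0.0306 and that of *Oas1a* from -0.720 to 0.0683, positive without PTH replicate 3 for *Ifit1*, *Ifit2* and *Oas1a* and without vehicle replicate 1 for *Ifit1* (0.0950) and *Ifit3*. *Ifit1* was at 0.0248 with quantile normalization. With *Slpi*, the count of 15 lower members was 11 to 26 when 1 library was left out, that of higher members 0 to 1, and the median -0.48 to -0.24. It was 23 with FPKM rescaled to the same sum, a sum that *Col1a1* enters in MC3T3-E1 cells but is missing from 4 sorted libraries. *Ifih1* (-0.00833) and *Psmb8* (-0.0174) turned negative under that scaling. With 1 library left out *Gbp3* ranged from -0.402 to 0.00123 and *Tap1* from -0.0715 to 0.0420, both highest without mock replicate 2, and *Tap1* was at 0.0060 without *Slpi* replicate 2. Where a value shows no cause, the cause was not tested.

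The replicate numbers share no stated origin, and deviations of libraries with the same number correlated by 0.03 to 0.10 in sorted osteoblasts, where 5 of 6 libraries correlated best with their own number, and by -0.05 to 0.04 in MC3T3-E1 cells, with 1 of 6. A replicate block gave 10 and 13 lower members in place of 9 and 15.

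Few reads limit the low members of the sorted libraries, and 3 libraries per group limit all tests.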

Other observations

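Relatives of the members, picked by name after the values of the members were seen, showed the following. Of 14 other interferon-inducible GTPases listed in sorted osteoblasts, 11 were tested. With PTH 4 were lower and 0 higher, beside 8.85% and 6.38% of all genes. *Gbp4* had an FPKM of 8.25, 7.96 and 3.81 with vehicle and 1.61, 0.936 and 0.0523 with PTH (log2 fold change -2.08 ± 0.39, adjusted *p* = 0.0224). *Iigp1* had 5.67, 3.20 and 3.46 against 0.973, 1.32 and 0.449 (-1.41 ± 0.26, adjusted *p* = 0.0204), and the other two were *Gbp7* and *Gbp9*. In MC3T3-E1 cells 5 of 8 tested were lower with *Slpi* and 0 higher, beside 28.9% and 31.9% of all genes. Among the 5, *Iigp1* had 3.42, 5.50 and 3.36 against 2.25, 2.37 and 2.59 (-0.56 ± 0.14, adjusted *p* = 0.00978). Mock replicate 2 was the highest library for *Iigp1* too.

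The IFITM family split with *Slpi*. *Ifitm1* had 309, 325 and 307 in mock and 215, 199 and 207 in *Slpi* cells (-0.60 ± 0.04, adjusted *p* = 9.00e-06), and *Ifitm2* was lower by 0.33 on the log2 scale. *Ifitm5*, a bone-restricted relative known for its part in mineralization rather than in virus entry, had 1.61, 2.05 and 1.62 against 29.3, 34.1 and 25.5 (3.47 ± 0.10, adjusted *p* = 2.18e-07). In sorted osteoblasts *Ifitm5* had 176, 180 and 192 with vehicle and 199, 165 and 285 with PTH, and its groups overlapped (0.20, adjusted *p* = 0.48). There 4 other IFITM genes were tested in all, and 0 were called lower or higher, with *Ifitm6* at 1.14 (adjusted *p* = 0.175). Of the other *Oas1* genes 2 were tested in each experiment, and 0 were called. *Ifit3b* was the 1 other IFIT gene tested in MC3T3-E1 cells, and it was lower (-0.50, adjusted *p* = 0.0318).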
